A study of Cavia porcellus with 72 samples.

Results

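Brain-derived neurotrophic factor (BDNF), the neurotrophin receptors, the proteins that process and store neurotrophins and the adaptors that dock on activated receptors were followed in the hippocampus of juvenile female guinea pigs. The set was given as 10 gene symbols: BDNF, NTRK2, NTRK3, NGFR, SORT1, VGF, PCSK1, SHC3, FRS2 and DOK6. Read counts are analysed here for 9 of the 10, for 7 of them in all 3 generations, where 11446 genes could be followed in every generation. NGFR was analysed in F1 alone and SORT1 in F2 alone. NTRK2, the receptor tyrosine kinase that binds BDNF, is not analysed here.

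The animals were Dunkin-Hartley guinea pigs, killed on postnatal day 40 in an unstressed state. Founder (F0) females had been given the synthetic glucocorticoid betamethasone at 1 mg/kg (sGC) or saline vehicle (Veh) in 3 courses during pregnancy, the first begun on gestational day 40 and the last ended on gestational day 61. F1 was exposed in utero. F2 and F3 descended from F1 and then F2 males mated with untreated females, and the pregnancies that bore them were undisturbed. RNA from the right hippocampus was sequenced for 6 Veh and 5 sGC animals in F1, 6 and 6 in F2, and 6 and 7 in F3, each from a different mother. All groups share strain, sex, age and tissue, and differ in generation and in what the founder received.

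BDNF is made as a precursor, cleaved by convertases and stored in secretory granules, and it is released by active neurons. Mature neurotrophins bind Trk receptor kinases, while precursors bind NGFR together with SORT1. An activated Trk receptor recruits adaptors of the SHC, FRS and DOK families, which couple it to RAS and PI3 kinase signalling. In the hippocampus this system is known for its part in synaptic plasticity, and BDNF is a long-studied target of stress hormones.

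Libraries held between 13507449 and 19767033 counted reads (median 15942505.5). Levels are given as counts per 1000000 reads (CPM), scaled by the TMM method over the 36 libraries. They are not divided by transcript length, so the levels of different genes are not compared with each other. The bulk RNA had the genes that mark hippocampal neurons: 9 of 10 markers were measured, the least abundant, MEIS2, with at least 219 reads in every library, and their summed level lay between 8313 and 12676 CPM in Veh and sGC libraries. The 7 measured markers of striatal neurons summed to between 157 and 186.5 CPM. Choroid plexus markers varied widely in F2, where 5 were measured. Their sums there lay between 26.3 and 496 CPM in Veh and between 23.2 and 704 CPM in sGC libraries. Libraries numbered 32 to 36 are all sGC libraries (replicates 4 and 5 of F1, 6 of F2, 5 and 6 of F3), so results were also computed without them. F1 sGC replicate 4 stood apart from its group, with a summed astrocyte marker level of 17607 CPM where the other F1 libraries had 9326 to 14033 CPM.

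Within a generation, sGC was set against Veh with the quasi-likelihood F test of edgeR. P-values were adjusted over all genes tested after Benjamini and Hochberg, and a gene was called at an adjusted p-value below 0.05. The members were chosen with earlier results of these data known. The shares of members called are therefore not independent evidence about the set. In F1, 1 of 7 members tested was called, DOK6, which rose, where 2.08% of all genes were called (1.63% rose and 0.457% fell). In F2, none of 8 members was called, where 0% of all genes were called. The F2 count at an unadjusted p below 0.05 was also 0 of the 8 members (6.64% of all genes), and the likelihood ratio test and DESeq2 called none of them. In F3, 5 of 7 members were called, against 5.04% of all genes. There the 3 adaptors SHC3, FRS2 and DOK6 rose, where 2.17% of all genes did, and the granule genes VGF and PCSK1 fell, where 2.87% did. The median log2 fold change of the members was 0.16 in F1, 0.05 in F2 and -0.05 in F3, and that of all genes tested was -0.01, 0.00 and 0.00. Veh and sGC libraries did not overlap for 2 members in F1 (FRS2 and DOK6; 4.36% of all genes), for 0 in F2 (0.377%) and for 2 in F3 (VGF and SHC3; 2.6%).

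**Figure D1:**
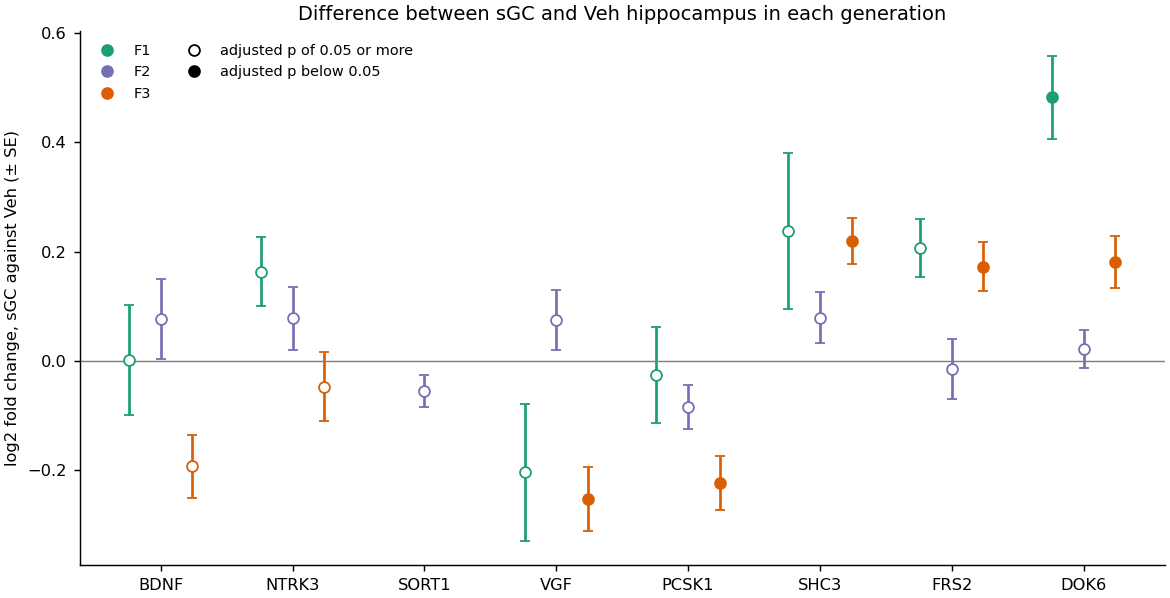
Log2 fold change of sGC against Veh (vertical axis, ± SE) for 8 genes, with 1 point for each generation in which the gene was tested; filled points have an adjusted p below 0.05. In F3 the adaptors SHC3, FRS2 and DOK6 lie above 0 and VGF and PCSK1 below it, while in F1 the filled point is DOK6 at 0.48.

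BDNF, the ligand, had group means between 36.4 and 41.7 CPM. Its mean was 41.6 CPM ± 3.85 (SD, n = 6) in F1 Veh and 41.7 CPM ± 7.22 (n = 5) in F1 sGC. It was 38.4 CPM ± 2.85 (n = 6) in F2 Veh and 40.5 CPM ± 5.11 (n = 6) in F2 sGC. It was 41.6 CPM ± 2.35 (n = 6) in F3 Veh and 36.4 CPM ± 3.31 (n = 7) in F3 sGC. Ordered by mean, the groups ran from F1 sGC through F3 Veh, F1 Veh, F2 sGC and F2 Veh to F3 sGC, and no neighbours in that order differed by more than 1 SD of either group.

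In F1 the 5 sGC animals had BDNF at 32.02, 37.0, 43.7, 45.5 and 50.3 CPM, on both sides of the Veh range of 37.8 to 48.0 CPM (median 40.9). Its log2 fold change there was 0.00 (SE 0.10, adjusted p = 0.995). In F2 the Veh libraries ran from 33.4 to 41.5 CPM (median 38.7) and the sGC libraries from 34.5 to 49.6 CPM (median 40.1), with a log2 fold change of 0.08 (SE 0.07, adjusted p = 0.845). The groups overlapped in both generations.

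In F3, BDNF ran from 38.4 to 43.7 CPM in Veh (median 42.3) and from 31.6 to 39.6 CPM in sGC animals (median 38.0). All 7 sGC libraries lay below the Veh mean, and 4 of 7 lay below every Veh library. The log2 fold change of -0.19 (SE 0.06) had an adjusted p of 0.0635 and did not pass. The likelihood ratio test (adjusted p = 0.0342) and DESeq2 (adjusted p = 0.0248) did call it, and the adjusted p lay between 0.0248 and 0.164 over 20 alternatives.

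**Figure D2:**
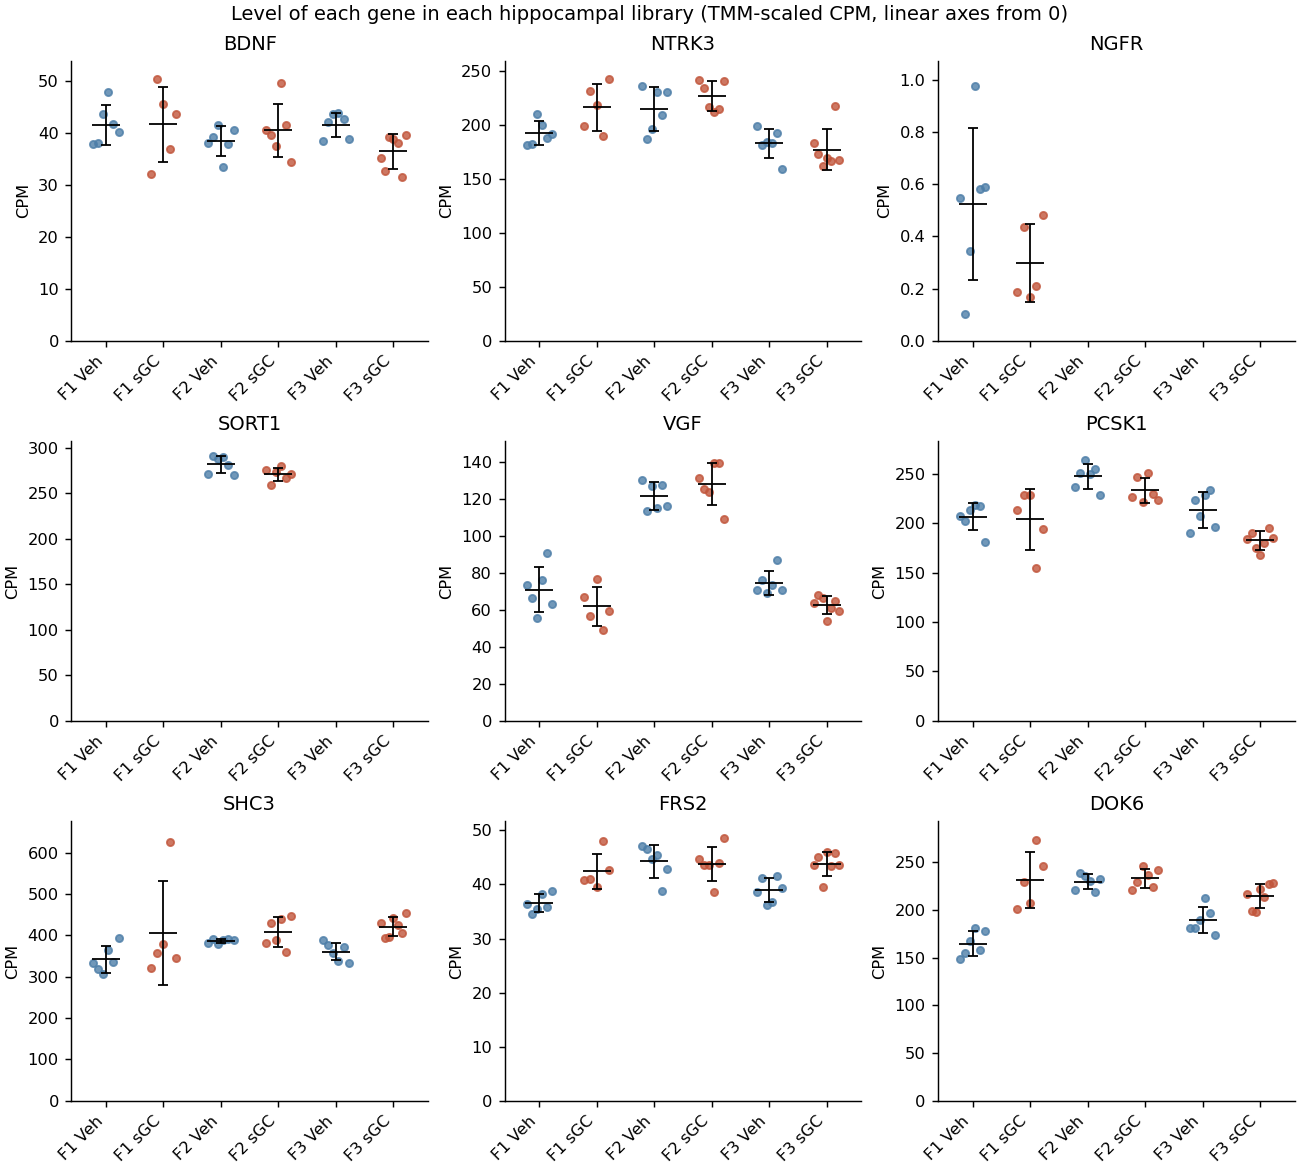
CPM of each gene in every library (points), with the mean and SD of each group (black); blue is Veh and red is sGC, and every vertical axis starts at 0. NGFR has values in F1 and SORT1 in F2. FRS2 and DOK6 in F1 and VGF and SHC3 in F3 show no overlap between Veh and sGC, and 1 F1 sGC library has SHC3 at 627 CPM.

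The receptors were not called in any generation. NTRK3, the Trk receptor of neurotrophin-3, ran from 182 to 210.3 CPM in F1 Veh (median 189.9). The F1 sGC animals had 190.0, 199.6, 219, 232 and 243 CPM, so that 3 of 5 lay above every Veh library. Its log2 fold change was 0.16 (SE 0.06, adjusted p = 0.179) in F1, 0.08 (SE 0.06, adjusted p = 0.799) in F2 and -0.05 (SE 0.06, adjusted p = 0.727) in F3. The groups overlapped in each generation. In F3 sGC animals NTRK3 lay between 162.4 and 184 CPM in 6 of 7 libraries and at 218 CPM in replicate 6, and without that library the log2 fold change was -0.10.

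NGFR, the low-affinity p75 receptor that binds all neurotrophins and their precursors, was close to the limit of counting. It had 2 to 14 reads in F1 Veh libraries and 3 to 8 reads in F1 sGC libraries. These are levels of 0.103 to 0.977 CPM in Veh and 0.169 to 0.480 CPM in sGC animals, and the groups overlapped. NGFR fell under the filter on low counts. Without that filter its log2 fold change was -0.75 (SE 0.46, adjusted p = 0.390), which at this depth cannot show a difference.

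SORT1 (sortilin), which sorts BDNF into the regulated secretory pathway and is the partner of NGFR for precursors, had 270.3 to 291 CPM in F2 Veh (median 284) and 259 to 280.2 CPM in F2 sGC (median 272). The ranges overlapped, although all 6 sGC libraries lay below the Veh mean and 2 of 6 below every Veh library. On the log2 scale sGC differed from Veh by -0.06 (SE 0.03, adjusted p = 0.764).

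VGF and PCSK1, which belong to the secretory granule, fell together in F3. VGF is a granule protein whose gene is induced by neurotrophins, and it is itself cut into active peptides. In F3 Veh it ran from 69.4 to 87.1 CPM (median 72.3), and in F3 sGC from 54.1 to 68.3 CPM (median 63.6). Every one of the 7 sGC animals lay below every Veh animal. Its mean in sGC was 0.838 of that in Veh, a log2 fold change of -0.25 (SE 0.06, adjusted p = 0.0190).

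PCSK1, the prohormone convertase of regulated granules, ran from 190.4 to 234 CPM in F3 Veh (median 215) and from 168 to 195.6 CPM in F3 sGC (median 184). All 7 sGC libraries lay below the Veh mean, and 6 of 7 lay below every Veh library. This was a log2 fold change of -0.22 (SE 0.05, adjusted p = 0.0155). Both calls held when each of the 13 F3 libraries was left out in turn and without the libraries numbered 32 to 36, where VGF was at -0.26 (adjusted p = 0.0474) and PCSK1 at -0.24 (adjusted p = 0.0310). A fit over all 36 libraries did not call VGF (adjusted p = 0.0875). With the replicate number as a block in the fit, neither gene was called (PCSK1 at an adjusted p of 0.0792).

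Neither granule gene was called in the other generations. VGF in F1 had 49.5, 56.7, 59.5, 67.3 and 77.1 CPM in sGC animals against 55.7 to 91.1 CPM in Veh (median 70.2), a log2 fold change of -0.20 (SE 0.12, adjusted p = 0.383). In F2 it was at 0.08 (SE 0.06, adjusted p = 0.799), and 3 of 6 sGC libraries lay above and 1 lay below every Veh library. PCSK1 was at -0.03 in F1 (SE 0.09, adjusted p = 0.897) and at -0.08 in F2 (SE 0.04, adjusted p = 0.744). In F1 the lowest PCSK1 level, 155 CPM, was that of sGC replicate 4, and the other 4 sGC animals had 194.4 to 229 CPM, with Veh at 181.4 to 219 CPM.

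The adaptors rose in F3, and DOK6 rose in F1 too. SHC3, an SHC adaptor found mainly in neurons, ran from 334 to 388 CPM in F3 Veh (median 365) and from 393 to 453 CPM in F3 sGC (median 425). All 7 sGC animals lay above every Veh animal. The ratio of means was 1.16 and the log2 fold change 0.22 (SE 0.04, adjusted p = 0.00902). The call held without any 1 of the 13 libraries and without the libraries numbered 32 to 36 (0.23, adjusted p = 0.0260), and was lost in a fit over all 36 libraries (adjusted p = 0.152).

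In F1, SHC3 was at 320.1, 345, 357, 379 and 627 CPM in sGC animals, the highest being replicate 4, and at 306 to 393 CPM in Veh. The first 4 of these lay inside the Veh range. The log2 fold change was 0.24 (SE 0.14, adjusted p = 0.373) and fell to 0.03 (adjusted p = 0.833) without replicate 4. In F2, where the Veh libraries were narrow at 380 to 391 CPM, the sGC libraries ran from 360.2 to 448 CPM and the log2 fold change was 0.08 (SE 0.05, adjusted p = 0.773).

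FRS2, a membrane-anchored adaptor shared by Trk and fibroblast growth factor receptors, was higher in every sGC library than in every Veh library of F1. The 5 sGC animals had 39.6, 40.8, 41.03, 42.7 and 47.9 CPM and the Veh animals 34.5 to 38.8 CPM (median 36.1). The log2 fold change of 0.21 (SE 0.05) had an adjusted p of 0.0630 and did not pass. Of 18 alternatives, 3 called it: the likelihood ratio test, DESeq2 and the fit over all 36 libraries.

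In F3, FRS2 ran from 36.2 to 41.6 CPM in Veh (median 39.0) and from 39.5 to 46.1 CPM in sGC (median 43.6), with 6 of 7 sGC animals above every Veh animal. This gave a log2 fold change of 0.17 (SE 0.05, adjusted p = 0.0371). That call sat at the edge of the threshold. It was lost when any library was left out except Veh replicates 2 and 5 and sGC replicate 3 (adjusted p up to 0.0797) and without the libraries numbered 32 to 36 (adjusted p = 0.114). The fold change lay between 0.15 and 0.20 over 20 alternatives. In F2 it was -0.01 (SE 0.05, adjusted p = 0.972).

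DOK6, a docking protein that binds the receptors RET and NTRK3 and promotes neurite outgrowth, had the largest log2 fold change among the members that passed the filter on low counts. In F1 the Veh animals had 148 to 180.8 CPM (median 163), and the 5 sGC animals had 201, 207, 229, 246 and 273 CPM. All sGC libraries lay above all Veh libraries. The sGC mean was 1.405 times that of Veh, with a log2 fold change of 0.48 (SE 0.08, adjusted p = 0.00914). All 18 alternatives called it, with values from 0.36 to 0.53. Without the libraries numbered 32 to 36 it was 0.36 (adjusted p = 0.0240), and those 3 remaining sGC animals, replicates 1 to 3, had 201, 229 and 207 CPM. DOK6 was chosen as a member with its result in these libraries known, so the call is not independent evidence.

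In F3, DOK6 ran from 174 to 212 CPM in Veh (median 186) and from 197 to 228 CPM in sGC (median 216). The ranges overlapped, with 5 of 7 sGC animals above every Veh animal. The log2 fold change was 0.18 (SE 0.05, adjusted p = 0.0371). The call was kept in 8 of 20 alternatives, and among single libraries it was lost by leaving out any but Veh replicates 4 and 5 and sGC replicates 2 and 3 (adjusted p up to 0.0774). Without the libraries numbered 32 to 36 the adjusted p was 0.111. In F2 the sGC libraries (221 to 247 CPM) overlapped the Veh libraries (218 to 239 CPM), and the log2 fold change was 0.02 (SE 0.03, adjusted p = 0.918).

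Markers of other cell types moved with the same groups. In F3 the summed level of 10 astrocyte markers, such as the water channel AQP4 and the glutamate transporter SLC1A2, lay between 10290 and 11207 CPM in Veh and between 11551 and 13143 CPM in sGC, without overlap. All 10 had a positive log2 fold change (median 0.20), and none was at 0 in any library. Of the 10, 5 rose, where 2.17% of all genes rose. In F1 all 10 were positive too (median 0.24) and 1 rose, where 1.63% of all genes rose. The F1 sums were 9326 to 12233 CPM in Veh and 10660 to 17607 CPM in sGC. In F2, 8 of 10 were positive (median 0.04) and none rose. The hippocampal neuron list had no gene called by edgeR in any generation. At an unadjusted p below 0.05 there were 4, 3 and 1 of 9 in F1, F2 and F3. The shares of all genes were 19.6%, 6.64% and 21.1%. Of the 9 genes, 2 were positive in F1 (median -0.09), 6 in F2 (median 0.03) and 3 in F3 (median -0.01). The F3 sums overlapped (10057 to 10877 CPM in Veh, 8968 to 12627 CPM in sGC). CAMK2A was the largest part of these sums, with a mean of 5697 CPM in F3 Veh and 6466 CPM in F3 sGC. In F1 all 8 meningeal fibroblast markers tested were lower in sGC (median -0.85), and 2 fell, where 0.457% of all genes fell. Their sums were 105 to 291 CPM in Veh and 73.6 to 145 CPM in sGC. All 7 oligodendrocyte markers tested were lower in F1 sGC as well (median -0.21, none called). In F3 all 8 meningeal markers were positive (median 0.20, none called), with sums of 117 to 186.9 CPM in Veh and 120 to 232 CPM in sGC. The lists of microglia, endothelial, choroid plexus and striatal genes had none called within a generation. Of 7 thalamic neuron genes 1 rose in F1 (RORA; 1.63% of all genes) and 1 in F3 (LEF1; 2.17% of all genes). The part of these shifts in the values of the members was not tested, and in bulk RNA fewer cells of a type and less RNA per cell cannot be told apart.

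**Figure D3:**
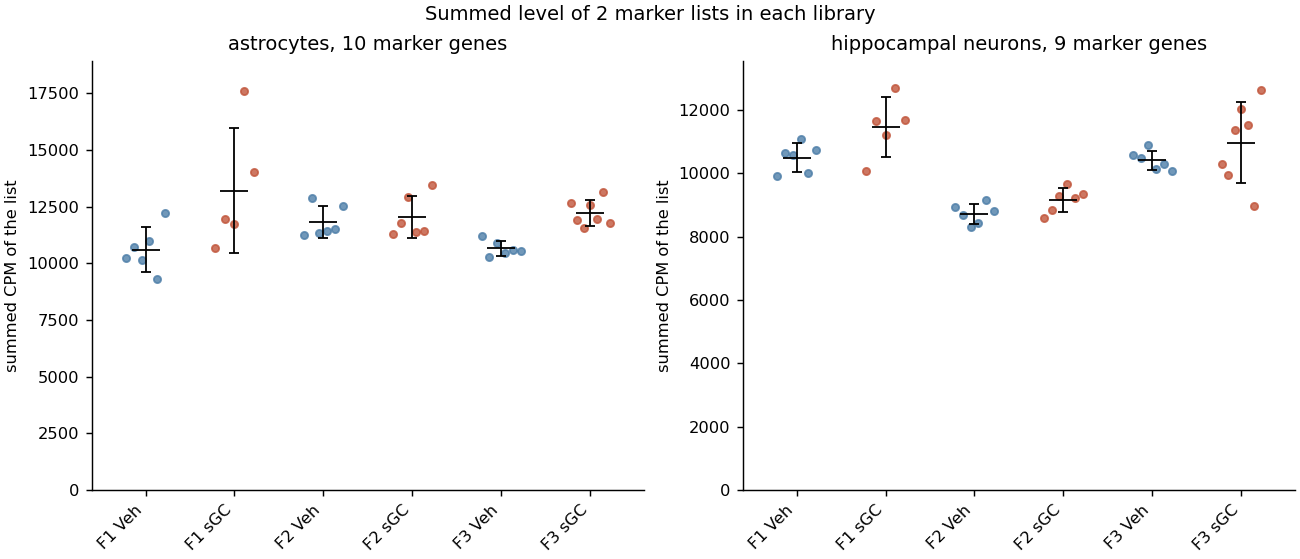
Summed CPM of 10 astrocyte markers (left) and 9 hippocampal neuron markers (right) in every library (points), with the mean and SD of each group (black); blue is Veh and red is sGC. The F3 sGC libraries lie above all F3 Veh libraries for astrocytes, at 11551 CPM or more, and 1 F1 sGC library reaches 17607 CPM.

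Whether sGC effects differed between generations was tested as an interaction over all 36 libraries. DOK6 was the 1 member called: its effect in F2 was 0.47 lower than in F1 on the log2 scale (-0.47, SE 0.08, adjusted p = 0.0253), where 0.29% of all genes were called. The call held in 41 of 42 alternatives and was lost without F2 Veh replicate 2 (-0.45, adjusted p = 0.0656). Because DOK6 was chosen with its result in these libraries known, this call is not independent evidence either. Members with an unadjusted p below 0.05 for F2 minus F1 were DOK6, FRS2 and VGF, where 16.8% of all genes had one. In level, the F2 Veh mean of DOK6 was 229.6 CPM, beside an F1 sGC mean of 231 CPM. Between F3 and F1 no member was called (0% of all genes), with DOK6 at -0.31 (SE 0.08, adjusted p = 0.111). There 3 of 7 members had an unadjusted p below 0.05 (DOK6, NTRK3 and PCSK1; 13.1% of all genes), and the likelihood ratio test and DESeq2 each called DOK6.

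Between F3 and F2 no member was called either (0% of all genes), and the largest difference was that of VGF, -0.33 (SE 0.12, adjusted p = 0.494). At an unadjusted p below 0.05 there were 3 of 7 (BDNF, VGF and FRS2; 9.08% of all genes), and the likelihood ratio test and DESeq2 called none. The falls of VGF and PCSK1 in F3 were therefore not shown to differ from F1 and F2 with all libraries included. PCSK1 did differ between F3 and F1 without F1 sGC replicate 4 (-0.29, adjusted p = 0.0259) and without the libraries numbered 32 to 36 (-0.35, adjusted p = 0.0120). The mean sGC effect over the 3 generations was called for DOK6 (0.23, SE 0.03, adjusted p = 0.000282), FRS2 (0.12, SE 0.03, adjusted p = 0.0108) and SHC3 (0.18, SE 0.05, adjusted p = 0.0318), where 8.53% of all genes were called (5.07% rose and 3.46% fell). PCSK1 (-0.11, SE 0.04, adjusted p = 0.0624), VGF (-0.12, SE 0.05, adjusted p = 0.122), NTRK3 (0.07, SE 0.04, adjusted p = 0.282) and BDNF (-0.04, SE 0.05, adjusted p = 0.702) did not pass. For SHC3 the mean effect was 0.11 without F1 sGC replicate 4, and its call was lost without F1 Veh replicate 3 (adjusted p = 0.0517) or F2 sGC replicate 6 (adjusted p = 0.0592). Without the libraries numbered 32 to 36, DOK6 alone stayed called.

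Members also differed between the generations of Veh animals. A test over the 18 Veh libraries called 6 of 7 members, against 44.8% of all genes, and for 6 of 7 the mean was highest in F2. VGF had means of 71.1, 121.8 and 74.7 CPM in F1, F2 and F3 Veh (adjusted p = 3.09e-08). Its lowest F2 Veh library, at 114 CPM, lay above every F1 and F3 Veh library. DOK6 had means of 165, 229.6 and 189 CPM (adjusted p = 1.11e-07), and its F2 Veh libraries, at 218 CPM or more, lay above all F1 and F3 Veh libraries as well.

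PCSK1 (adjusted p = 0.000576), FRS2 (adjusted p = 0.000218), NTRK3 (adjusted p = 0.00644) and SHC3 (adjusted p = 0.0167) differed less, with F2 means 1.197, 1.21, 1.12 and 1.13 times those of F1. BDNF was the 1 member not called (adjusted p = 0.188), with an F2 mean 0.925 times that of F1. F3 means were within 0.952 to 1.15 times those of F1 for all 7. The hippocampal neuron marker sum was 8313 to 9166 CPM in F2 Veh, below the 9907 to 11082 CPM of F1 Veh. SLC17A7, the vesicular glutamate transporter, had a mean of 1222 CPM in F2 Veh against 2160 CPM in F1 Veh. The means of CAMK2A, NRGN, NEUROD2, FIBCD1 and WFS1 were also lower in F2 Veh. Those of PROX1 (112 against 105 CPM), NEUROD6 (153 against 141 CPM) and MEIS2 (20.6 against 18.6 CPM) were higher in F2 Veh. Generation and the order of the library numbers cannot be told apart.

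**Figure D4:**
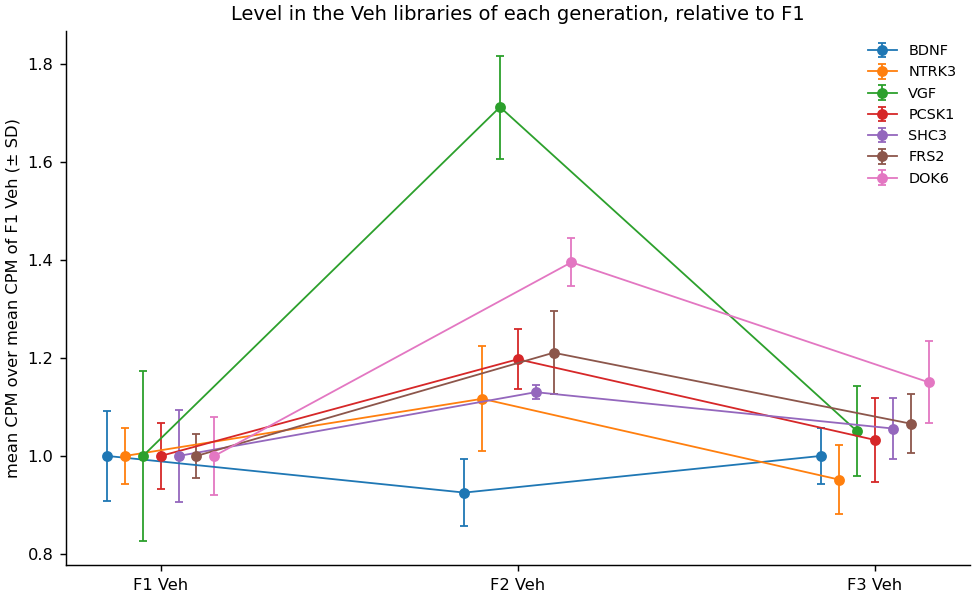
Mean CPM in the Veh libraries of each generation divided by the mean of F1 Veh (vertical axis, ± SD over 6 libraries), with 1 line for each of the 7 genes followed in all generations. VGF reaches 1.71 and DOK6 1.395 in F2, and BDNF is the gene whose mean is lower in F2 than in F1.

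The wider pathway was read from 6 lists with 91 genes that are not members. In F1, 1 of 81 tested rose and 1 fell, and in F3 1 of 81 rose and 3 fell. In F2 edgeR's quasi-likelihood test called none of 80, and 6 had an unadjusted p below 0.05, against 6.64% of all genes. All genes were called at 2.08%, 0% and 5.04%. The median log2 fold change of the pathway genes tested was -0.02 in F1, 0.02 in F2 and 0.00 in F3. The lists of other neurotrophin ligands (2 tested), of receptors and co-receptors (10 tested) and of Trk adaptors and scaffolds (18 tested in F3) had none called in any generation. At an unadjusted p below 0.05 the adaptor list had 5 of 18 genes in F1, 2 of 17 in F2 and 2 of 18 in F3, where 19.6%, 6.64% and 21.1% of all genes lay below it.

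In the list of precursor processing and secretory granule genes, 2 of 14 fell in F3, where 2.87% of all genes fell. The Veh and sGC groups of F3 did not overlap for 2.6% of all genes. This list too was chosen with earlier results of these data known. PCSK2, the second granule convertase, went from 219 CPM ± 11.1 (SD, n = 6) in Veh to 192 CPM ± 7.65 (n = 7) in sGC, without overlap (205 CPM and more against 200.04 CPM and less), with a log2 fold change of -0.19 (SE 0.04, adjusted p = 0.00897). SCG2, the granule protein secretogranin II, went from 221 CPM ± 18.3 to 184 CPM ± 15.3, a log2 fold change of -0.26 (SE 0.06, adjusted p = 0.0168). The list's median in F3 was -0.04, with 8 of 14 negative.

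Of the 22 kinases downstream of Trk that were tested, AKT1 rose in F3 (84.3 CPM ± 3.28 in Veh, 92.9 CPM ± 3.24 in sGC; log2 fold change 0.14, SE 0.03, adjusted p = 0.0273) and MAP2K1 fell (434 CPM ± 19.5 and 400 CPM ± 12.3; -0.12, SE 0.03, adjusted p = 0.0463). Among 15 genes known to respond to BDNF, CREB1, the transcription factor activated by Trk signalling, rose in F1 (20.02 CPM ± 1.63 in Veh, 24.4 CPM ± 1.68 in sGC; 0.28, SE 0.07, adjusted p = 0.0494). TAC1, the substance P precursor, fell in F1 (16.2 CPM ± 1.75 and 11.8 CPM ± 1.51; -0.46, SE 0.09, adjusted p = 0.0291). In F1 13 of the 15 were negative with a median of -0.14, and in F2 12 of 15 were positive with a median of 0.07, none of them called.

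How BDNF varied with the other members among animals of 1 group was described by the deviation of log2 CPM from the group mean in the 36 libraries. Of 6 relations none passed in a two-sided permutation test within groups. The widest were FRS2 (r = -0.35, p = 0.0721, adjusted p = 0.433; rho = -0.34, p = 0.0554, adjusted p = 0.291) and PCSK1 (r = 0.32, p = 0.198, adjusted p = 0.593; rho = 0.31, p = 0.0969, adjusted p = 0.291). Without the 2 libraries farthest from the median of BDNF, F1 sGC replicate 1 and F2 sGC replicate 4, r was -0.35 and 0.39, and it was -0.27 for SHC3, 0.17 for VGF and -0.04 for NTRK3. NTRK3 had r = -0.01 over all libraries (p = 0.959, adjusted p = 0.959; rho = 0.00, p = 1.000, adjusted p = 1.000) and 0.77 in F1, -0.46 in F2 and -0.53 in F3. VGF had r = 0.12 (p = 0.581, adjusted p = 0.871; rho = 0.12, p = 0.538, adjusted p = 0.807), and SHC3 had r = -0.03 (p = 0.943, adjusted p = 0.959; rho = 0.00, p = 0.994, adjusted p = 1.000). DOK6 had r = 0.20 (p = 0.406, adjusted p = 0.813; rho = 0.20, p = 0.321, adjusted p = 0.642), which was 0.06 without the 2 farthest libraries and 0.50 (adjusted p = 0.0466) without those numbered 32 to 36, so that no value holds for all sets of libraries.

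**Figure D5:**
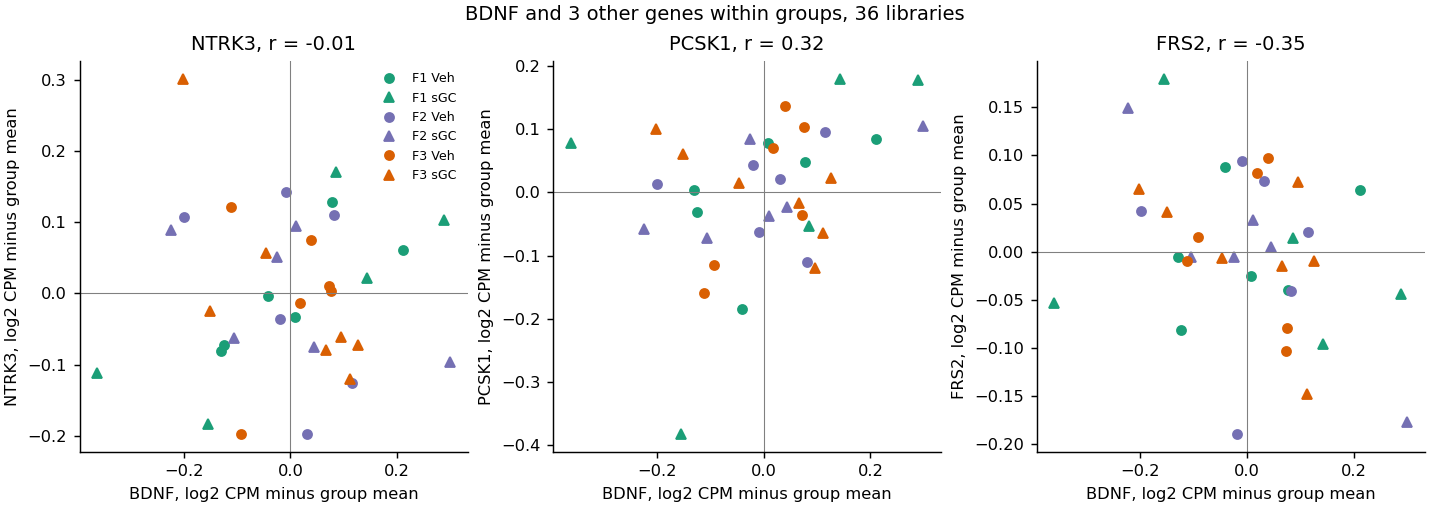
Deviation of log2 CPM from the group mean for BDNF (horizontal axes) and for NTRK3, PCSK1 and FRS2 (vertical axes), 1 point per library; colour marks the generation, circles are Veh and triangles sGC, and the 3 genes were picked after their r was seen. The points form no line common to the generations, with r of -0.01, 0.32 and -0.35.

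Over the same 36 libraries, the genes whose deviations were most like those of BDNF were OLFM1 (r = 0.80), TMEM37 (r = 0.79) and NRGN (r = 0.79). VGF was most like MAP2K7 (r = 0.79), UPF1 (r = 0.77) and TUBB4A (r = 0.77). DOK6 was most like C1orf21 (r = 0.82), KREMEN1 (r = 0.80) and KIF5C (r = 0.78). These values describe the libraries, which share their depth scaling, and no other member was among the 3 genes most like BDNF, VGF or DOK6.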

How the data were processed

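Hippocampal mRNA libraries (TruSeq V2, single reads of 51 bases) from 36 animals were analysed. What the authors deposited for each generation is a table of unnormalized read counts, 1 column per animal. Per the submitters' processing notes, reads were trimmed with Trimmomatic 0.32 and aligned with TopHat2, and the genome build and read counter are not given in the sources used here. The tables also hold the authors' own fold changes and p-values, and the bisulfite tables their methylation differences, neither of which was used here. Fits ran in edgeR 4.0.16 (with limma 3.58.1 loaded) under R 4.3.3, with DESeq2 1.42.0 as an alternative, and Python 3.11.15 served for summaries. Genes were kept by filterByExpr (11377, 11414 and 11359 genes in F1, F2 and F3) and scaled by TMM. Within a generation, sGC was set against Veh with the quasi-likelihood F test (threshold 0.05), and interactions, the mean effect and Veh across generations were tested over genes present in all tables. Library totals lay between 13507449 and 19767033. Groups came from the labels. The animals had different mothers, and libraries of 1 group differed by more than counting error (chi-square per degree of freedom of 2.15 to 29.5). Correlations used log2 CPM (prior count 2) and 100000 permutations within groups. Alternatives were the likelihood ratio test, DESeq2, RLE factors, no filter, a replicate block, a joint fit, leaving out single libraries, and leaving out those numbered 32 to 36. All 10 symbols are named, with up to 4 called genes per pathway list and generation and the 3 genes most like BDNF, VGF and DOK6. The fits were tested on simulated counts. Members and lists were chosen with earlier results of these data known.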

Additional observations from a re-analysis of the deposited data

Results flagged for a closer look

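In 46 groups of a gene, 3 had a library far from the rest of its group by Dixon's criterion, where chance alone gives about 1 in 20. SHC3 was at 627 CPM in F1 sGC replicate 4, with the next library at 379 CPM. The same library had the lowest PCSK1 (155 CPM) and VGF (49.5 CPM) and the highest DOK6 (273 CPM) and FRS2 (47.9 CPM) of its group. NTRK3 was at 218 CPM in F3 sGC replicate 6, with the next library at 184 CPM. FRS2 was at 39.5 CPM in F3 sGC replicate 3, with the next library at 43.4 CPM.

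The effect of sGC on DOK6 differed between generations in a test of the interaction, with a log2 difference of -0.47 for F2 minus F1 (SE 0.08, adjusted p = 0.0253, edgeR's quasi-likelihood test). All 5 F1 sGC libraries lay above the F1 Veh mean, and 3 of 6 F2 sGC libraries lay above the F2 Veh mean. Since DOK6 was chosen with its result in these libraries known, the difference is not independent evidence.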

How the results depend on the processing

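Of the members, DOK6 in F1 was called in all 18 alternatives, SHC3 in F3 in 19 of 20, PCSK1 in F3 in 19 of 20 and VGF in F3 in 18 of 20. FRS2 and DOK6 in F3 were called in 8 of 20 each. The 6 members called across Veh generations were called in every alternative run, and no member was called in F2 or between F3 and F2. RLE factors changed no call of a member. Depth limits NGFR, whose reads are too few to test. Planned without result were length-based levels, since no transcript lengths were at hand.

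Of all genes, the likelihood ratio test called 5.26% in F1, 0.0526% in F2, 1.47% between F2 and F1 and 0.509% between F3 and F1, where the quasi-likelihood test called 2.08%, 0%, 0.29% and 0%. DESeq2 called 6.27%, 0.137%, 2.03% and 0.724%, and 12.7% in F3 instead of 5.04%, of the genes to which it gave an adjusted p. Both called 2 members in F1 (FRS2 besides DOK6) and 1 between F3 and F1 (DOK6). The fit over all 36 libraries called 7.48% of genes and 2 members in F1 and 2.93% and 2 members in F3, where the main count of members was 5. Without a filter 0.577% of genes differed between F2 and F1. Without the libraries numbered 32 to 36, 0.845% of genes were called in F1, 2.79% and 3 members (SHC3, PCSK1 and VGF) in F3, 0.596% between F2 and F1, 3.77% and 1 member (PCSK1) between F3 and F1, and 0.473% and 1 member (DOK6) in the mean effect, instead of 8.53% and 3; 1 relation of BDNF passed instead of 0. The causes were not tested.

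Replicate numbers are shared between Veh and sGC in the labels, which do not say whether the number pairs animals. Same-numbered libraries did not consistently deviate together (correlations from -0.37 to 0.30). Of 17 sGC libraries, 3 were most like the Veh library of their own number. These correlations cannot exclude a pairing. With the replicate block, 0.598% of genes were called in F1, 1.51% and 1 member (SHC3) in F3 and 0.0351% between F2 and F1.

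Leaving out single libraries gave 0.49% (without F1 sGC replicate 5) to 3.0% (without F1 sGC replicate 4) of genes in F1, 0% to 0.00875% in F2 and 2.54% (without F3 sGC replicate 5) to 5.63% in F3 with 3 to 5 members. It gave 0% to 1.92% and 0 to 1 members between F2 and F1, 0% to 3.98% (without F1 sGC replicate 4) and 0 to 1 members between F3 and F1, and 4.73% (without F1 sGC replicate 4) to 10.4% and 2 to 5 members in the mean effect.

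Signs turned for values that were not called. In F1, BDNF was at -0.000478 with the likelihood ratio test and -0.0168 with the block, and between -0.0779 and 0.0832 without single libraries. PCSK1 in F1 was at 0.11 without the libraries numbered 32 to 36 and between -0.0716 and 0.0610 without single ones. FRS2 in F2 lay between -0.0490 and 0.0191. For F2 minus F1, BDNF lay between -0.0149 and 0.145 and SHC3 between -0.241 and 0.0430, with SHC3 at 0.0183 without libraries 32 to 36. For F3 minus F1, VGF lay between -0.143 and 0.0344, SHC3 between -0.0999 and 0.184 and FRS2 between -0.0661 and 0.00475, and without libraries 32 to 36 SHC3 was at 0.19 and FRS2 at 0.0205. That setting also turned the r of BDNF with NTRK3 (0.12), VGF (-0.00617) and SHC3 (0.36).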

Other observations

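In the mean sGC effect over the 3 generations, 3 of 81 genes of the pathway lists rose and 3 fell in edgeR's quasi-likelihood test, where 8.53% of all genes were called. Without the libraries numbered 32 to 36 this test called 0.473% of all genes. The genes named here were chosen after their values were seen. PTPN11, the phosphatase that acts beside FRS2 and GAB adaptors, rose (0.12, SE 0.02, adjusted p = 0.00317). Of the kinases downstream of Trk 2 rose, among them AKT1 (0.07, SE 0.02, adjusted p = 0.0496). The granule genes PCSK2 (-0.10, SE 0.03, adjusted p = 0.0341), SCG2 (-0.16, SE 0.04, adjusted p = 0.0162) and SCG3 (-0.08, SE 0.02, adjusted p = 0.0287) fell. In the same test 7 of 10 astrocyte markers, 1 of 9 hippocampal neuron markers and 1 of 7 thalamic neuron markers rose. Of 7 microglia markers 1 fell. The part of these marker shifts in the values of the pathway genes was not tested.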
